A study of Arabidopsis thaliana with 12 samples.

Results

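Subtilases and aspartyl (A1) proteases are large families of plant endopeptidases, and 4 of their genes are described here across 12 seedling arrays. They are the subtilase genes ARA12 (AT5G67360) and AT3G14067 and the aspartyl protease genes AT1G62290 and AT4G04460. The 4 genes were chosen by name, with no threshold, with their measured signals under tunicamycin in both genotypes already known. Their values in every comparison are therefore a description without a test. Each gene has 1 probe set that the platform's gene table pairs with it alone, and these 4 stand among 13286 genes matched on the array.

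The arrays came from total RNA of 10-day-old Arabidopsis thaliana seedlings of the Columbia (Col-0) ecotype, grown at 22 °C. Wild-type seedlings and seedlings of the ire1a ire1b double mutant received tunicamycin at 5 mg/l or its solvent DMSO (mock) for 5 h. The transcription inhibitor actinomycin D (75 µM) had been given to all 4 groups 2 h earlier, so that no group shows seedlings without it. Tunicamycin blocks N-glycosylation and loads the endoplasmic reticulum (ER) with misfolded protein. The labels name the mutant by its 2 genes only, without the alleles, and number 3 arrays per group. Whether the 3 were grown as separate cultures is not said. The p-values rest on the spread among them, part or all of which may be technical.

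Plant subtilases are serine proteases and A1 proteases are aspartic proteases. Most members of both families are made as inactive precursors with a signal peptide, enter the ER, often carry N-glycans, and travel on to the cell wall or the vacuole. Their mRNAs are therefore translated mostly at the ER membrane, where the RNase domain of IRE1 lies. IRE1 is known for the unconventional splicing of the bZIP60 mRNA and for cutting other mRNAs at the ER membrane, a decay called RIDD. The series asks which transcripts are lost under ER stress through IRE1 when new transcription is blocked.

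Signals are linear MAS5 intensities as deposited, with a 2% trimmed mean of about 500.1 on each array and medians from 107.0 to 119.2. The log2 signals of any 2 arrays correlated at 0.957 to 0.989 and no 2 arrays were identical. The 3' over 5' log2 ratio of control transcripts, a sign of RNA integrity, ran from 1.45 to 1.78 on wild-type tunicamycin arrays and from 1.51 to 1.92 on ire1a ire1b tunicamycin arrays, against 1.46 to 1.59 in wild-type mock. Its part in the results was not tested. Probe sets with a mean above the 40th percentile (signal 68.7) were tested, 13647 in all, and all 4 genes were among them. Signals of different probe sets are not on one scale, so changes are read within a probe set. Sums over markers and the split by signal given below describe the measurement only.

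ARA12 encodes a subtilase that is abundant in cell walls and is needed for the release of seed coat mucilage. Its signal was 1411, 1676 and 1432 on wild-type mock arrays 1 to 3 and 612, 635 and 669.8 on the wild-type tunicamycin arrays. On the ire1a ire1b arrays it was 1548, 1668 and 1323 under mock and 1577, 1452 and 1294 under tunicamycin. Only the 3 wild-type tunicamycin arrays were low. They lay below the 9 others, and the other 3 groups overlapped. The wild-type mean went from 1506 ± 147 to 639 ± 29.0 (SD, n = 3), which is 2.35-fold lower, a log2 change of -1.23 ± 0.12 (SE of the limma fit). In ire1a ire1b the means were 1513 ± 175 and 1441 ± 142, a log2 change of -0.07 ± 0.12.

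AT3G14067 encodes a subtilase whose transcript is known to rise in ageing leaves. Its wild-type signal was 519.8, 472 and 436 under mock and 102, 162 and 136 under tunicamycin. In ire1a ire1b it was 568, 561 and 391 under mock and 654, 502 and 494 under tunicamycin. Again the wild-type tunicamycin arrays were the only low ones, and mutant mock array 3 was the lowest of the rest. The wild-type mean was 3.62-fold lower with tunicamycin, at 134 ± 30.0 against 476 ± 42.1, a log2 change of -1.85 ± 0.19. Only 0.264% of the tested probe sets had a lower change in wild type. The mutant means were 507 ± 99.9 under mock and 550.0 ± 90.0 under tunicamycin, a log2 change of 0.13 ± 0.19.

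AT1G62290 encodes a typical aspartic protease of the vacuolar type, related to APA1. Its wild-type signal was 548, 638 and 580.4 under mock and 217, 237 and 178 under tunicamycin. The wild-type groups did not overlap, and the mean went from 589 ± 45.7 to 211 ± 30.3, 2.81-fold lower, a log2 change of -1.49 ± 0.29. In ire1a ire1b the signal was 644, 1110.4 and 496 under mock and 612, 1193 and 1349.8 under tunicamycin. Here the arrays of one group differed most: mock array 2 and tunicamycin arrays 2 and 3 were high, and the other 3 lay near the wild-type mock level. The mutant means were 750.0 ± 321 and 1052 ± 388, a log2 change of 0.49 ± 0.29. This change ran from 0.24 without mock array 3 to 0.84 without tunicamycin array 1.

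AT4G04460 encodes another typical aspartic protease, whose transcript is used as a marker of cells that undergo developmental programmed death, such as forming xylem. Its signal lay close to the level that set the filter. Its wild-type signal was 123, 168 and 142 under mock and 102, 73.0 and 60.6 under tunicamycin, with tunicamycin array 3 below that level. The wild-type groups did not overlap, though tunicamycin array 1 was close to mock array 1. The mean went from 145 ± 22.5 to 78.5 ± 21.2, 1.87-fold lower, a log2 change of -0.90 ± 0.24. In ire1a ire1b it was 132, 169 and 115 under mock and 114, 170.3 and 169 under tunicamycin, groups that overlapped, with a log2 change of 0.12 ± 0.24.

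**Figure D1:**
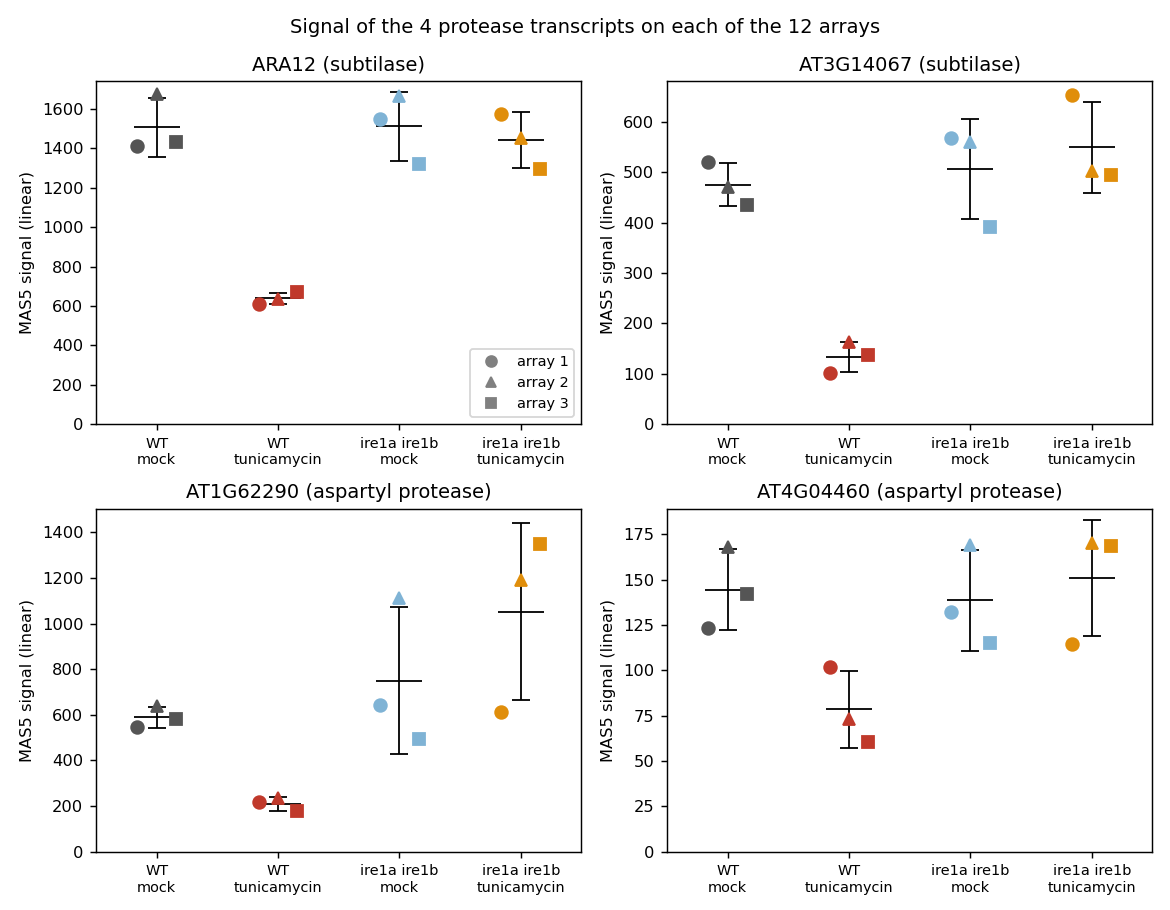
MAS5 signal on a linear axis from 0 (points, 1 per array, shape by array number) of the 4 protease transcripts in each group, with the mean (wide bar) and SD (n = 3). In each panel the 3 wild-type tunicamycin arrays lie below the 3 wild-type mock arrays, and the ire1a ire1b groups overlap.

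Side by side, the estimated change in wild type was largest for AT3G14067 and smallest for AT4G04460, and these differences between genes were not tested. All 4 probe sets had their 3 wild-type tunicamycin arrays below their 3 mock arrays, a pattern that 11.8% of the tested probe sets share. In ire1a ire1b, 0 of the 4 had it, against 2.71% of the tested probe sets. The wild-type change minus the mutant change (the interaction, on the log2 scale) was -1.17 ± 0.17 for ARA12, -1.98 ± 0.27 for AT3G14067, -1.98 ± 0.42 for AT1G62290 and -1.02 ± 0.34 for AT4G04460. AT4G04460 had the largest SE relative to its value. Since the arrays are of whole seedlings, fewer cells of a type and less RNA per cell cannot be told apart in any of these values.

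Under mock, ire1a ire1b minus wild type on the log2 scale was 0.00 ± 0.12 for ARA12, 0.07 ± 0.19 for AT3G14067, 0.27 ± 0.29 for AT1G62290 and -0.07 ± 0.24 for AT4G04460. Each value was no larger than its SE. The SEs leave room for differences, most of all for AT1G62290, whose mutant mock array 2 lay above all wild-type arrays.

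Under tunicamycin the 4 transcripts were higher in ire1a ire1b than in wild type, with groups that did not overlap for any of them, as for 11.5% of the tested probe sets. The ratio of mutant to wild type was 4.76 for AT1G62290, with a log2 difference of 2.25 ± 0.29, and 4.15 for AT3G14067, with 2.05 ± 0.19. It was 2.25 for ARA12, with a log2 difference of 1.17 ± 0.12, and 1.94 for AT4G04460, with 0.95 ± 0.24. These values use the same wild-type tunicamycin arrays as the wild-type response and are no independent evidence of it.

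The 4 transcripts moved together over the 12 arrays, given here as a description, since all share the low wild-type tunicamycin group. Pearson's r of log2 signal was 0.97 between the subtilases ARA12 and AT3G14067 and 0.91 between the aspartyl proteases AT1G62290 and AT4G04460. Between a subtilase and an aspartyl protease it ran from 0.76 to 0.86. The genes that lie beside them in the annotation were at hand in part. WRKY6, a transcription factor gene beside AT1G62290, had a wild-type log2 change of 0.08 ± 0.32 (limma adjusted p = 0.931). AT5G67350 beside ARA12 had -0.10 ± 0.20 (0.845), AT5G67340 had -0.27 ± 0.34 (0.758), and AT3G14075 near AT3G14067 had 0.16 ± 0.26 (0.808). None of these 4 neighbours passed the test. Among all tested probe sets 5.77% were called lower and 0.432% higher, so this count says little. The nearest neighbours of AT4G04460 were not tested.

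The families were then taken as a whole, to place the 4 genes among their relatives. Of 57 listed subtilases 46 had a probe set of their own and 17 were tested, and of 69 listed A1 proteases 56 had one and 34 were tested. The others with a probe set, 29 subtilases and 22 A1 proteases, lay below the filter. Counts over the tested relatives therefore do not speak for these. The counts below leave out the 4 genes, so that 15 subtilases and 32 A1 proteases remain.

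In wild type, tunicamycin lowered 4 of the 15 other subtilases and 9 of the 32 other A1 proteases and raised none of either. Among all tested probe sets 5.77% fell and 0.432% rose (limma adjusted p below 0.05). At an unadjusted p below 0.05, 8 subtilases and 15 A1 proteases were lower and 0 of either family higher, beside 10.2% of all tested probe sets lower and 5.11% higher. The median log2 change was -0.37 for the subtilases and -0.33 for the A1 proteases, beside 0.09 for all tested probe sets.

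Among the subtilases, AT3G14240 fell from 1522 ± 170 to 803 ± 8.84 in wild type, a log2 change of -0.92 ± 0.12 (limma adjusted p = 0.00024). AT2G05920 fell from 2355 ± 273 to 1343 ± 89.2 (-0.81 ± 0.12, adjusted p = 0.000503). These falls were smaller than the wild-type values of ARA12 and AT3G14067. SBTI1.1 fell from 216 ± 6.99 to 121 ± 26.8 (-0.86 ± 0.18, limma adjusted p = 0.0076), and AT4G30020 from 1193 ± 155 to 684 ± 93.3 (-0.80 ± 0.14, adjusted p = 0.00269). The other 11 did not pass. Among them, TPP2, the cytosolic tripeptidyl peptidase, had a wild-type change of 0.13 ± 0.10 (limma adjusted p = 0.6), and S1P, the Golgi protease that frees membrane-bound transcription factors, had -0.17 ± 0.19 (adjusted p = 0.72).

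Among the A1 proteases the largest fall was that of AT3G54400, and it exceeded the value of each of the 4 chosen genes. Its wild-type signal was 4532, 3667 and 4889 under mock and 1194, 997 and 1233 under tunicamycin, while the mutant arrays stayed between 4097 and 5115. The wild-type change was 3.81-fold, a log2 change of -1.93 ± 0.12 (limma adjusted p = 7.88e-07). NANA, an aspartyl protease reported from plastids, fell from 353 ± 25.1 to 111 ± 1.42 (-1.67 ± 0.17, limma adjusted p = 3.28e-05). Its 3 wild-type tunicamycin arrays were the closest together of its 4 groups.

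AT1G09750 fell from 4644 ± 716 to 1652 ± 220 (log2 change -1.49 ± 0.19, limma adjusted p = 0.000194), and AT3G52500 from 2200 ± 285 to 830.0 ± 88.9 (-1.40 ± 0.11, adjusted p = 6.11e-06). AT1G01300 fell from 1306 ± 165 to 662 ± 127 (-0.99 ± 0.14, limma adjusted p = 0.000444). APA1 encodes a vacuolar aspartic proteinase. Its signal went from 7557 ± 317 to 4301 ± 401 (-0.82 ± 0.09, limma adjusted p = 8.66e-05), and AT3G61820 from 713 ± 117 to 405 ± 27.7 (-0.81 ± 0.14, adjusted p = 0.00189). The calls of AT5G10770 (-0.89 ± 0.24, limma adjusted p = 0.0459) and AT1G77480 (-0.63 ± 0.16, adjusted p = 0.0322) were each lost when certain single arrays were left out. That of AT5G10770 was lost without any 1 of 9 arrays (all but wild-type tunicamycin array 2, and ire1a ire1b mock and tunicamycin arrays 3), with an adjusted p of up to 0.21. That of AT1G77480 was lost without any 1 of the 3 wild-type mock arrays or wild-type tunicamycin array 1, with an adjusted p of up to 0.159.

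**Figure D2:**
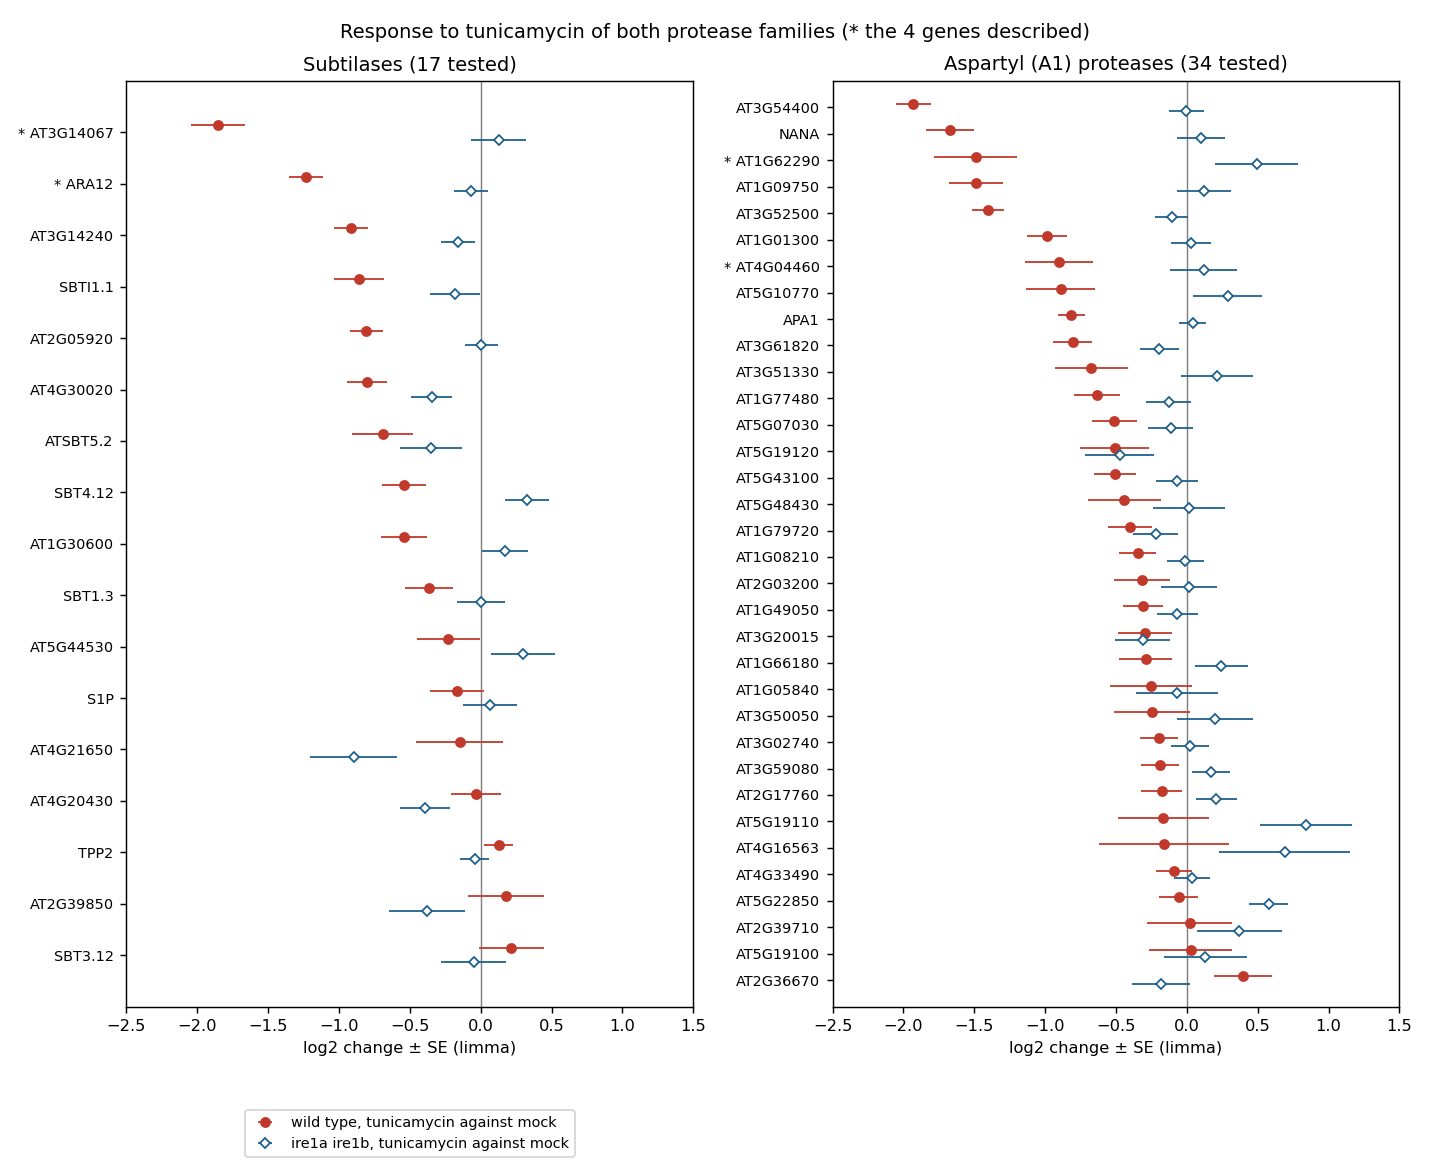
Log2 change with tunicamycin ± SE of the limma fit (3 arrays per group) for the 17 tested subtilases and 34 tested A1 proteases, in wild type (filled circles) and ire1a ire1b (open diamonds), in order of the wild-type change. The 4 chosen genes carry an asterisk. AT3G54400 is at the top of the right panel, with the lowest wild-type change (-1.93). Most ire1a ire1b values at the top of both panels lie near 0, with AT1G62290 at 0.49 as an exception.

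In ire1a ire1b, limma called 0 of the 15 subtilases and 0 of the 32 A1 proteases in either direction, against 0% of all tested probe sets lower and 0.044% higher. At an unadjusted p below 0.05, 3 subtilases were lower and 0 higher, and 0 A1 proteases were lower and 2 higher, beside 1.33% and 2.34% of all tested probe sets. The median change was -0.05 for the subtilases, 0.03 for the A1 proteases and 0.01 for all.

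The difference in response between genotypes was tested for the relatives. It was lower in wild type for 3 of 15 subtilases and 6 of 32 A1 proteases and higher for 0 of either, where 2.98% of all tested probe sets were lower and 0.0879% higher. The interaction contains the wild-type change and uses the same wild-type arrays, so a call in both is no independent evidence. The 6 A1 proteases had all fallen in wild type too, and their interactions were -1.93 ± 0.18 for AT3G54400 (limma adjusted p = 5.84e-05), -1.77 ± 0.24 for NANA (0.00113), -1.61 ± 0.27 for AT1G09750 (0.00392), -1.30 ± 0.16 for AT3G52500 (0.000603), -1.02 ± 0.20 for AT1G01300 (0.0106) and -0.86 ± 0.13 for APA1 (0.00246). Of the 3 subtilases, 2 had fallen in wild type: AT2G05920, with an interaction of -0.81 ± 0.16 (limma adjusted p = 0.0136), and AT3G14240, with -0.76 ± 0.17 (0.0253). The third was SBT4.12, with -0.87 ± 0.22 (0.0484). Its wild-type change of -0.54 ± 0.16 lay close to the threshold (limma adjusted p = 0.0566). That change passed in 8 of 21 alternatives, among them the replicate block (limma adjusted p = 0.0369), and had an adjusted p of up to 0.211 in the others. In the mutant SBT4.12 had 0.33 ± 0.16.

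The count of subtilases was 1 without any 1 of 6 arrays (wild-type tunicamycin 1 or 2, wild-type mock 3, ire1a ire1b mock 1 or 3, or ire1a ire1b tunicamycin 2). The call of AT3G14240 was lost without any 1 of 8 arrays (all but wild-type mock 1 and 2, ire1a ire1b mock 2 and ire1a ire1b tunicamycin 3), with an adjusted p of up to 0.0694. That of SBT4.12 was lost without any 1 of 9 arrays (all but wild-type tunicamycin 3 and ire1a ire1b tunicamycin 1 and 3), with an adjusted p of up to 0.138. Both calls were lost with eBayes without trend. That of SBT4.12 was also lost with no filter, quantile normalization and median centring. AT4G30020 fell in wild type but also had a mutant change of -0.35 ± 0.14, and its interaction of -0.46 ± 0.20 did not pass (limma adjusted p = 0.41). SBTI1.1 did not pass either, at -0.67 (0.256).

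The genotypes were also compared without tunicamycin. Under mock, 0 subtilases and 1 A1 protease were higher in ire1a ire1b and 0 of either lower, beside 0.161% of all tested probe sets higher and 0.322% lower. At an unadjusted p below 0.05, 1 subtilase and 3 A1 proteases were lower and 0 and 2 higher, beside 5.39% of all tested probe sets lower and 2.69% higher. The A1 protease was AT4G33490, at 227 ± 28.3 in wild-type mock and 364 ± 12.7 in mutant mock, a log2 difference of 0.69 ± 0.13 (limma adjusted p = 0.0304). That call was lost without wild-type mock array 2 or 3, wild-type tunicamycin array 2 or any 1 of the 3 ire1a ire1b mock arrays, with an adjusted p of up to 0.159. With tunicamycin AT4G33490 was at 213 ± 14.3 in wild type and 374 ± 15.1 in ire1a ire1b, and its response passed the test in neither genotype.

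Under tunicamycin, 5 of 15 subtilases and 12 of 32 A1 proteases were higher in ire1a ire1b than in wild type, where 6.68% of all tested probe sets were higher and 3.03% lower. These comparisons share the wild-type tunicamycin arrays with the wild-type response. Of the 17, 11 had fallen in wild type, 3 subtilases and 8 A1 proteases. The largest differences were those of AT3G54400 (2.00 ± 0.12, limma adjusted p = 4.43e-07) and AT5G19110 (1.99 ± 0.32, adjusted p = 0.00116). The group means of AT5G19110 took another course than those of the 4 chosen genes. They were 115 ± 30.5 and 107 ± 49.8 in wild type and 225 ± 36.7 and 418 ± 143 in the mutant, under mock and tunicamycin. Its genotype difference under mock (0.98 ± 0.32, limma adjusted p = 0.392) did not pass, nor did its log2 change in the mutant (0.84 ± 0.32).

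SBT4.12 (1.17 ± 0.16, limma adjusted p = 0.000238) and AT3G51330 (1.23 ± 0.25, adjusted p = 0.00698) were also higher in the mutant under tunicamycin without a call in wild type. So were SBT1.3 (0.68 ± 0.17, limma adjusted p = 0.02) and AT5G22850 (0.51 ± 0.14, adjusted p = 0.0293), AT4G33490 (0.82 ± 0.13, adjusted p = 0.000831) and AT5G19110. AT3G51330 was dim, and its wild-type tunicamycin signals (41.9, 47.2 and 58.8) lay below the filter level of 68.7. Its mutant signals, at 82.8 to 138, lay above that level and helped it pass the filter. The call of SBT1.3 was lost without wild-type tunicamycin array 1 or 2 or ire1a ire1b tunicamycin array 2 (adjusted p of up to 0.0846), and that of AT5G22850 without any 1 of the wild-type tunicamycin arrays 1 and 2 and the 3 ire1a ire1b tunicamycin arrays (up to 0.104). The calls of AT5G10770 (up to 0.14) and AT3G61820 (up to 0.101) each ended without any 1 of 4 tunicamycin arrays: 1 of both genotypes, ire1a ire1b 2 and wild-type 3 for AT5G10770, and wild-type 1 and 2 and ire1a ire1b 2 and 3 for AT3G61820. One relative was lower in the mutant, AT3G20015 (-0.64 ± 0.19, limma adjusted p = 0.0499), and its call was lost without any 1 of 9 arrays (all but wild-type mock 3 and ire1a ire1b mock 2 and 3, up to 0.167).

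**Figure D3:**
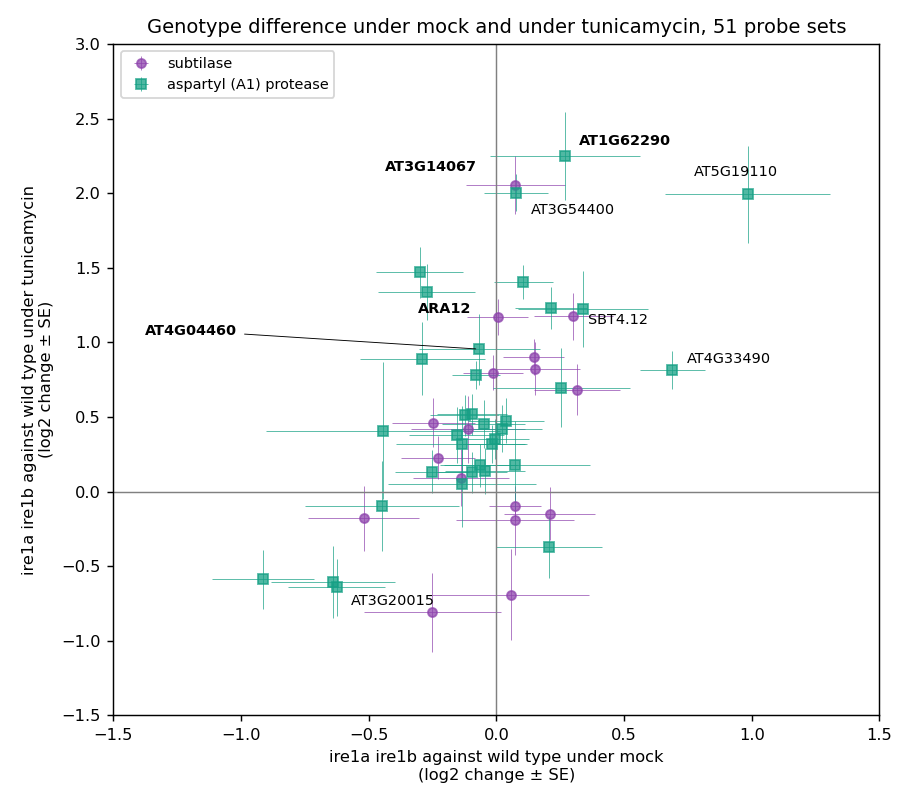
Log2 difference of ire1a ire1b against wild type under mock (horizontal) and under tunicamycin (vertical), each ± SE of the limma fit, for the 51 tested probe sets of both families. The 4 chosen genes (bold) lie between -0.07 and 0.27 on the mock axis and between 0.95 and 2.25 on the tunicamycin axis, and AT5G19110 and AT4G33490 lie to the right of 0 on both.

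How bright a probe set was went along with the calls. Of the other tested members of both families, 9 of 18 with a mean signal above 317.7, the median of all tested probe sets, fell in wild type (50%), and 4 of 29 below it (13.8%). Among all tested probe sets these shares were 9% (614 of 6823) and 2.55% (174 of 6824). MAS5 values of dim probe sets vary more, and the part of this in the count was not tested. By their means over the 12 arrays AT3G14067 and AT1G62290 lay above that median with ARA12, and AT4G04460 below it.

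Each of the 4 transcripts was also set against the 7351 other tested probe sets of 1 named gene by Pearson's r of log2 signal over the 12 arrays, as a description of which patterns were most alike. For ARA12 the first were AT1G64650 (r = 0.99), TSC10A (0.99), an ER enzyme of sphingoid base synthesis, and AT3G54040, AT4G29260 and AT2G20230 (0.98 each). AT1G64650 went from 2253 to 1329 in wild type and from 2243 to 2187 in the mutant. For AT3G14067 the first was AT1G74790 (r = 0.98), with log2 changes of -1.71 in wild type and 0.11 in ire1a ire1b, followed by AT1G16560 and AT1G70160 (0.98 each). TSC10A and AT1G64650 were again among the first 5.

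The aspartyl proteases had other partners. AT1G62290 was most like VHA-A2 (r = 0.96), a subunit of the vacuolar proton pump, and AT2G34930 (0.96), followed by NAI2 (0.93), a protein of ER bodies. NAI2 went from 4689 to 1704 in wild type, a log2 change of -1.46, and had 0.10 in the mutant. AT2G34930 shared with AT1G62290 a high value on ire1a ire1b mock array 2. AT4G04460 was most like AT3G27230 and AT5G44380 (both r = 0.92), and ATERDJ2A (0.91), a subunit of the machinery that moves proteins into the ER. AT5G44380 had log2 changes of -1.80 in wild type and 0.12 in the mutant. AT5G07360 was among the first 5 of both aspartyl proteases, with AT3G08930 (0.93) for AT1G62290 and AT5G20660 (0.90) for AT4G04460.

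**Figure D4:**
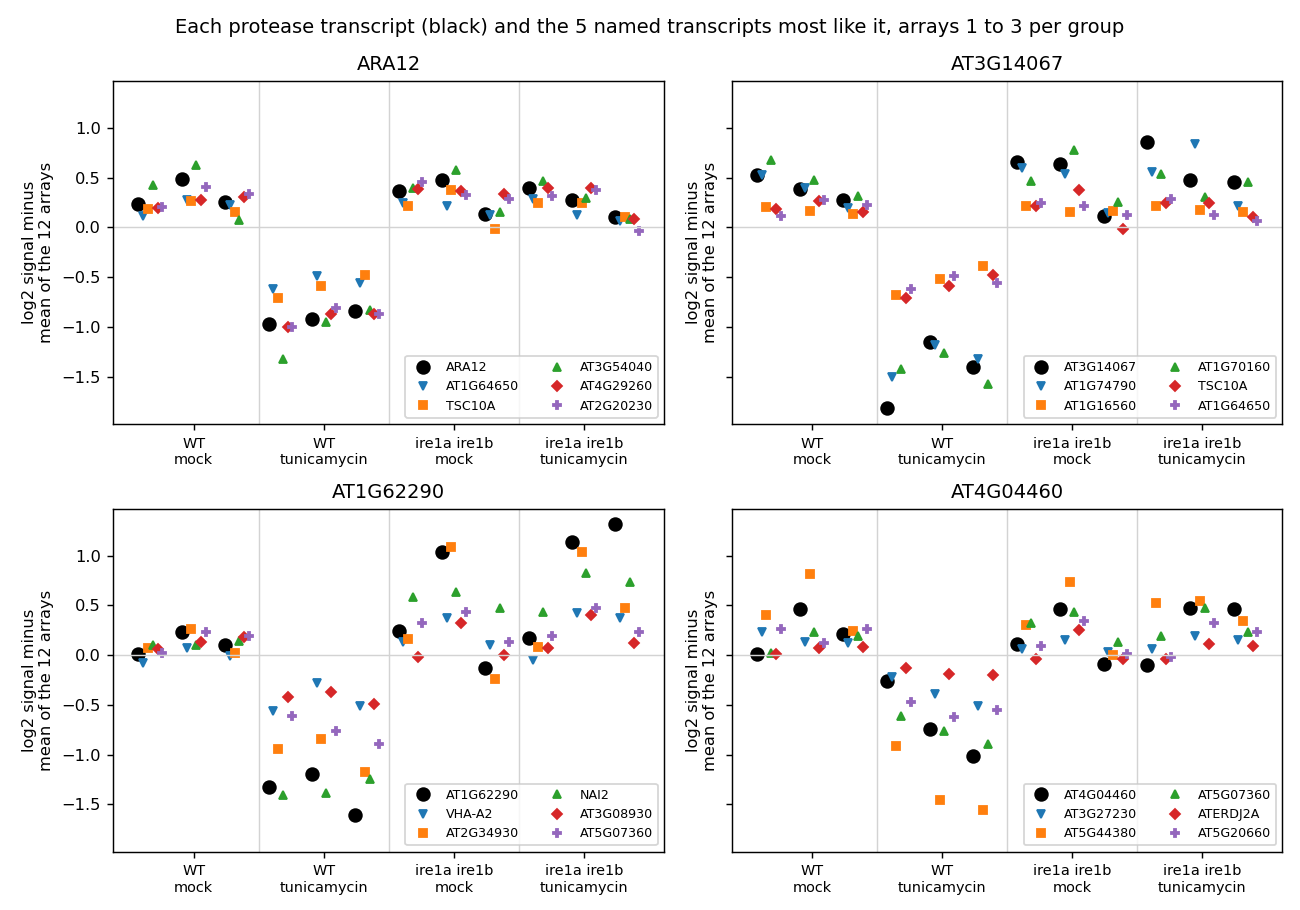
Log2 signal minus its mean over the 12 arrays for each chosen transcript (black circles) and the 5 named transcripts with the highest Pearson's r, with arrays 1 to 3 of each group side by side. All lie lowest in the wild-type tunicamycin group, by unequal amounts, and the ire1a ire1b groups of AT1G62290 spread more widely than those of ARA12.

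Markers of seedling parts were read beside these results. The shoot list had 1 of 12 genes with a probe set of its own, RCA, at 26115 to 28495 in wild-type mock and 26902 to 27680 in wild-type tunicamycin. The root list had 4 of 12, and their summed signal was 24144 to 25784 in wild-type mock, 10863 to 11358 in wild-type tunicamycin, 23700 to 26004 in mutant mock and 25053 to 26900 in mutant tunicamycin. Most of this sum came from 1 transcript, PYK10, the beta-glucosidase of root ER bodies, so the sum does not stand for the root list as a set. PYK10 went from 22998 ± 928 in wild-type mock to 10067 ± 379 with tunicamycin, a log2 change of -1.19 ± 0.07 (limma adjusted p = 3.72e-07). The other tested root markers fell too, AT5G17820 with -0.84 ± 0.20 (limma adjusted p = 0.0205) and AT4G11290 with -0.92 ± 0.20 (adjusted p = 0.0109). The interaction of PYK10 was -1.28 ± 0.10 (limma adjusted p = 1.3e-05). Those of AT5G17820 (-1.04 ± 0.28, limma adjusted p = 0.0722) and AT4G11290 (-0.84 ± 0.28, adjusted p = 0.183) did not pass. The list of xylem or dying cells, to which AT4G04460 is relevant, had 3 of 11 genes, with a summed signal of 803 to 1141, 634 to 672, 646 to 811 and 672 to 777 in the same order. Its 1 tested gene, scpl48, fell in wild type with -0.58 ± 0.14 (limma adjusted p = 0.0237). The calls of AT5G17820 and scpl48 were lost without mock array 1 or 2 or any 1 of the 3 tunicamycin arrays of wild type (adjusted p of up to 0.0873 and 0.125), and that of AT4G11290 without mock or tunicamycin array 2 (up to 0.0669). The part of cell makeup in the 4 genes' values was not tested.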

How the data were processed

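Total RNA of 12 samples (4 groups of 3) was measured on one-colour arrays with 3' labelling. Each probe set carries 1 linear intensity per array, deposited by the authors, for which the submitters' processing notes name MAS5 with no version. The near-equal trimmed means show a common scaling of each array, so all changes are relative to the bulk of the array.

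Of 22810 probe sets 64 are array controls. The platform's gene table gave 13513 of the others 1 gene, 503 several and 8730 none listed; 13436 matched the RefSeq table (TAIR10.1), used for names and neighbours only. Sequences and positions were not used here.

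Log2 signals were fitted without further normalization in limma 3.58.1 (R 4.3.3): 1 mean per group, 5 comparisons, eBayes with an intensity trend, two-sided tests, Benjamini-Hochberg adjustment over 13647 probe sets and a threshold of 0.05. The number of arrays, 3 per group, limits the precision. Simulated data had independent normal noise on each array and 200 probe sets lowered in the wild-type tunicamycin group only. There the wild-type comparison recovered 71% of 2-fold and 98% of 4-fold changes, and the interaction 42% and 88%. The real data had more calls and deviations shared between some arrays, so these rates need not hold for them.

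The text names the 4 genes, every relative past the threshold in any comparison, a set of listed relatives, and the 5 most alike transcripts of each gene. Of that set, SDD1, ASPG1, CDR1 and SLP2 had no probe set of 1 gene, and AT1G69100 (2.35 to 53.0) lay below the filter. The 4 genes and the lists were chosen with earlier results of these data known. The neighbours, AT5G19100, AT5G19120 and the marker genes (RCA, PYK10, AT5G17820, AT4G11290, scpl48) fall outside this rule.

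Same-numbered arrays were checked for pairing by the correlation of their deviations from group means. It was 0.13, 0.02 and 0.12 between the wild-type groups and 0.11, 0.44 and 0.51 between the mutant groups. Mutant arrays of unlike number had -0.46 to 0.16, so numbers 2 and 3 went together and number 1 did not stand out. Between the mock groups of the genotypes, like numbers had 0.08, 0.34 and 0.39. Between their tunicamycin groups they had -0.095, -0.005 and 0.025, so like numbers did not go together there. The main fit does not use the numbers. Alternatives were no filter, a 60th-percentile filter, quantile normalization, median centring, an offset of 32, eBayes without trend, array weights, a replicate block, only the 6 arrays compared, and each array left out.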

Additional observations from a re-analysis of the deposited data

Results flagged for a closer look

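The response to tunicamycin differed between wild type and ire1a ire1b for 9 of the 47 other tested relatives by limma's test of that difference. The difference is the wild-type change minus the mutant change on the log2 scale. It was lower for all 9, where 2.98% of all tested probe sets were lower and 0.0879% higher. The 4 chosen genes are left out here, since their differences were known when they were chosen.

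The A1 proteases were AT3G54400 (-1.93), NANA (-1.77), AT1G09750 (-1.61), AT3G52500 (-1.30), AT1G01300 (-1.02) and APA1 (-0.86). The subtilases were SBT4.12 (-0.87), AT2G05920 (-0.81) and AT3G14240 (-0.76), of which SBT4.12 and AT3G14240 depend on single arrays and on the processing, as given above. Single arrays far from their group were not sought by a test, since groups hold 3 arrays.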

How the results depend on the processing

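The values of the 4 genes moved by less than 1 SD between replicates in every alternative that could be run. Leaving out 1 array can hardly move a group mean by that much, so this limit says little there. Values in wild type, in the interaction and between genotypes under tunicamycin kept their direction. AT4G04460 was not tested under the 60th-percentile filter. In wild type they ran from -1.29 to -1.15 for ARA12, -2.01 to -1.63 for AT3G14067, -1.58 to -1.36 for AT1G62290 and -1.11 to -0.69 for AT4G04460. Each replicate number occurs once in every group, so the replicate block could not alter the changes of the 4 genes. No filter, another filter, eBayes without trend and only the arrays compared keep the same group means. They could not alter these changes either, and sameness under all of these alternatives shows nothing. Quantile normalization, median centring, the offset, array weights and leaving out 1 array could alter them. With the block, no family count in the mutant moved from 0.

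Values near 0 changed sign when 1 array was left out. In the mutant they ran from -0.16 to 0.0071 for ARA12, -0.0495 to 0.22 for AT3G14067 and -0.0076 to 0.31 for AT4G04460. Under mock, mutant minus wild type ran from -0.0697 to 0.10 for ARA12, -0.0186 to 0.25 for AT3G14067, -0.0574 to 0.52 for AT1G62290 and -0.22 to 0.0594 for AT4G04460.

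The count of other subtilases with a lower interaction was 3, became 1 with eBayes without trend and 5 with array weights, and ran from 1 to 3 with 1 array left out. Over all tested probe sets the count of lower interactions was 406 and ran from 276 to 853. Array weights raised the calls under mock over all tested probe sets from 44 to 598 lower and from 22 to 309 higher. Among the relatives they gave 1 subtilase higher (0 before), 3 A1 proteases lower (0 before; 0 to 1 with 1 array left out) and 2 higher (1 before; 0 with only the 6 arrays compared, 0 to 1 with 1 left out). Under tunicamycin, the replicate block gave 1 subtilase lower (0 before, 0 to 1 with 1 array left out) and 2 A1 proteases lower (1 before). That last count was 0 without the filter, with quantile normalization, median centring, the offset of 32 or no trend, and 0 to 1 with 1 array left out. The causes were not tested. A1 proteases called lower in wild type ran from 7 to 13 around 9, other subtilases from 4 to 6 around 4. All tested probe sets called lower there ran from 557 to 1086 around 788, so the family counts moved with a moving background. Arrays were few and AT4G04460 was dim, which limits its precision most.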

Other observations

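AT5G19110 has 2 neighbouring A1 protease genes, AT5G19100 and AT5G19120, that were tested. Under tunicamycin, where AT5G19110 was higher in ire1a ire1b by 1.99 ± 0.32 on the log2 scale (limma adjusted p = 0.00116), AT5G19100 had 0.18 (adjusted p = 0.78) and AT5G19120 had -0.61 (adjusted p = 0.145). They were chosen after their values were seen.

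Set against the mock array of the same number, the AT1G62290 signal on the ire1a ire1b tunicamycin arrays was 0.951, 1.07 and 2.72 times as high, and on the wild-type tunicamycin arrays 0.396, 0.371 and 0.306 times. The same ratios of AT4G04460 were 0.866, 1.01 and 1.47 in the mutant and 0.827, 0.434 and 0.426 in wild type.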
